A study of Homo sapiens with 18 samples.

Results

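This report describes 9 genes of glycogen synthesis and breakdown, GYS1, GYS2, GBE1, UGP2, PGM1, PYGL, PYGB, PPP1R3B and PPP1R3C, in 3 human cell lines kept in normoxia or hypoxia. The genes were taken by name from the 23106 genes of the count files, and all 9 were listed there. The rule uses names only, and it was written with earlier results of these data known. PolyA+ RNA was sequenced in 3 samples of each of 6 groups, 18 samples in all. HKC8, here HKC-8, is a kidney proximal tubule line, RCC4+VHL is a kidney cancer line stably transfected with wild-type VHL, and HepG2 is a hepatocellular cancer line. Hypoxia was 0.5% oxygen for 16 h in HKC-8 and HepG2 cells and 1% oxygen for 24 h in RCC4+VHL cells by their labels. The main text published with the data gives 0.5% for 16 h for RCC4 too, but does not mention the transfected line. Sample titles of HKC-8 differ, with 0.1 for oxygen in hypoxia and 21 in normoxia. The VHL transgene was present in normoxic and hypoxic RCC4+VHL samples alike, and the sources used here do not give whether this line is a single clone.

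Glycogen is the branched storage polymer of glucose. Phosphoglucomutase turns glucose 6-phosphate into glucose 1-phosphate, UDP-glucose pyrophosphorylase activates it, glycogen synthase extends the chain and the branching enzyme adds side chains, while glycogen phosphorylase releases glucose 1-phosphate from the chain ends. Targeting subunits bring protein phosphatase 1 to the glycogen particle, where dephosphorylation activates the synthase and inactivates the phosphorylase. Liver cells hold glycogen for the blood glucose of the whole body, whereas most other cells hold it for their own use.

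Total counts per sample lay between 75441764 and 97984260 in HKC-8, 42045335 and 51794355 in RCC4+VHL and 40915980 and 48355303 in HepG2, so HKC-8 was sequenced more deeply than the other lines, whose ranges overlap. Depth and cell line cannot be told apart in comparisons with HKC-8. The hepatocyte markers ALB and TTR averaged 10582 and 222 CPM (counts scaled to a common library total) in HepG2 and reached at most 3 and 0 counts in any sample of the kidney lines. APOA1 and AFP averaged 1016 and 7155 CPM in HepG2 and reached at most 10 counts in a kidney sample. SERPINA1, the remaining hepatocyte marker, averaged 6394 CPM in HepG2, and was at 9.67 CPM in RCC4+VHL, with up to 527 counts, and at no more than 34 counts in an HKC-8 sample. The renal epithelial marker PAX8 averaged 156 CPM in HKC-8 and 126 CPM in RCC4+VHL against 10.7 CPM in HepG2. Of the other renal markers, CDH16 averaged 191 CPM in RCC4+VHL and 3.71 CPM in HKC-8, close to the 3.66 CPM of HepG2, and PAX2 averaged 38.6 CPM in RCC4+VHL but reached at most 4 counts in an HKC-8 sample. LRP2 and CUBN, which mark the proximal tubule, averaged under 1 CPM in every line, so PAX2, LRP2 and CUBN were absent or nearly so in HKC-8. The methods describe triplicate experiments, but do not say whether the 3 samples of a group came from separate cultures, so the p-values measure only the spread between these samples, which may be technical.

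The sequences just upstream of GBE1, PPP1R3C and GYS1 are shown as examples. These genes, for the branching enzyme, a phosphatase targeting subunit and the synthase, are among the 5 that rose in hypoxia in all 3 lines. The others of the 5, PGM1 and PPP1R3B, are not shown and had 1 and 0 matches to the letters below. The genes shown are thus those of the 5 with the most matches. The hypoxia-inducible factors (HIF) bind the core letters ACGTG or GCGTG, and capitals mark each match on either strand. Each sequence runs 5′ to 3′ on the minus strand of GRCh37, the strand of all 3 genes. The windows of GBE1 (chr3:81810797-81811096) and PPP1R3C (chr10:93392829-93393128) are the 300 bases before the annotated start of the canonical transcript, and hold no annotated exon. For GYS1 the full window overlaps annotated exons and is not shown. The 28 bases given instead (chr19:49496647-49496674, bases 108 to 81 before the start) were cut to begin and end with a match. Whether they overlap an exon was not tested.
GBE1: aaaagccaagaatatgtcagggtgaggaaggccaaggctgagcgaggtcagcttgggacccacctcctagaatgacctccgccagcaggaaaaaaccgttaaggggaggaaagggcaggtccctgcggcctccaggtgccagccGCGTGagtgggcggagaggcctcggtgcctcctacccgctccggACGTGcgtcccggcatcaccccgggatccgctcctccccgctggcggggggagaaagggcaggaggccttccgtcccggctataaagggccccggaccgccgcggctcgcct
PPP1R3C: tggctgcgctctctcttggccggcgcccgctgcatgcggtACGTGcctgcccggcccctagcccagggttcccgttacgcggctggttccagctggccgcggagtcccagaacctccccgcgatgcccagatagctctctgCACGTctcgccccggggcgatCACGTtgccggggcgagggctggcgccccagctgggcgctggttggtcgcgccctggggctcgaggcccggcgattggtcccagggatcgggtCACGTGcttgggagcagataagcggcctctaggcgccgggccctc
GYS1: CACGCggaaatccccgcccccggGCGTG

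GBE1 had 2 matches, PPP1R3C had 5 at 4 places because CACGTG reads the same on both strands, and GYS1 had 3 in its 300 bases, of which 2 are in the stretch shown. PYGB had 3, PGM1 and UGP2 had 1 each, and GYS2, PYGL and PPP1R3B had 0. Of 18970 windows of 300 bases before the canonical transcripts of protein-coding genes, 56.2% held at least 1 match. Matches at 2 or more places were held by 25.3% and at 3 or more by 9.72%, so a match is common and describes the letters only.

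Hypoxia raised most of the 8 genes that were tested, in each line. Hypoxic and normoxic samples of a line were compared with edgeR's quasi-likelihood test over all expressed genes, and a gene was called at a Benjamini-Hochberg adjusted p under 0.05. GYS2 had too few counts to be tested in any line. Values are for the RNA of whole samples, in which fewer expressing cells and less RNA per cell cannot be told apart. The other 8 passed the filter on low counts in every line, with at least 43 counts in every sample. In HKC-8, 6 of the 8 were called higher and 0 lower, where 11.2% and 9.12% of 13536 tested genes were called. With the replicate number as a block, which the numbers of the HKC-8 samples allow, 7 were called higher and 0 lower, where 21% and 21.6% of genes were. In RCC4+VHL, 6 were called higher and 1 lower, where 25.9% and 24.2% of 12811 genes were. In HepG2, 7 were called higher and 0 lower, where 19.9% and 19.2% of 13623 genes were. The median log2 fold change of the 8 genes was 1.01 in HKC-8, 0.82 in RCC4+VHL and 1.26 in HepG2, beside 0.00358, -0.00178 and -0.00441 for all tested genes. The genes called were also those whose 3 hypoxic CPM lay wholly above, or for PYGB in RCC4+VHL wholly below, the 3 normoxic ones. Such separation upwards was seen in 19.7% of all tested genes in HKC-8, 28.2% in RCC4+VHL and 24.6% in HepG2, and downwards in 28.3% in RCC4+VHL.

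**Figure D1:**
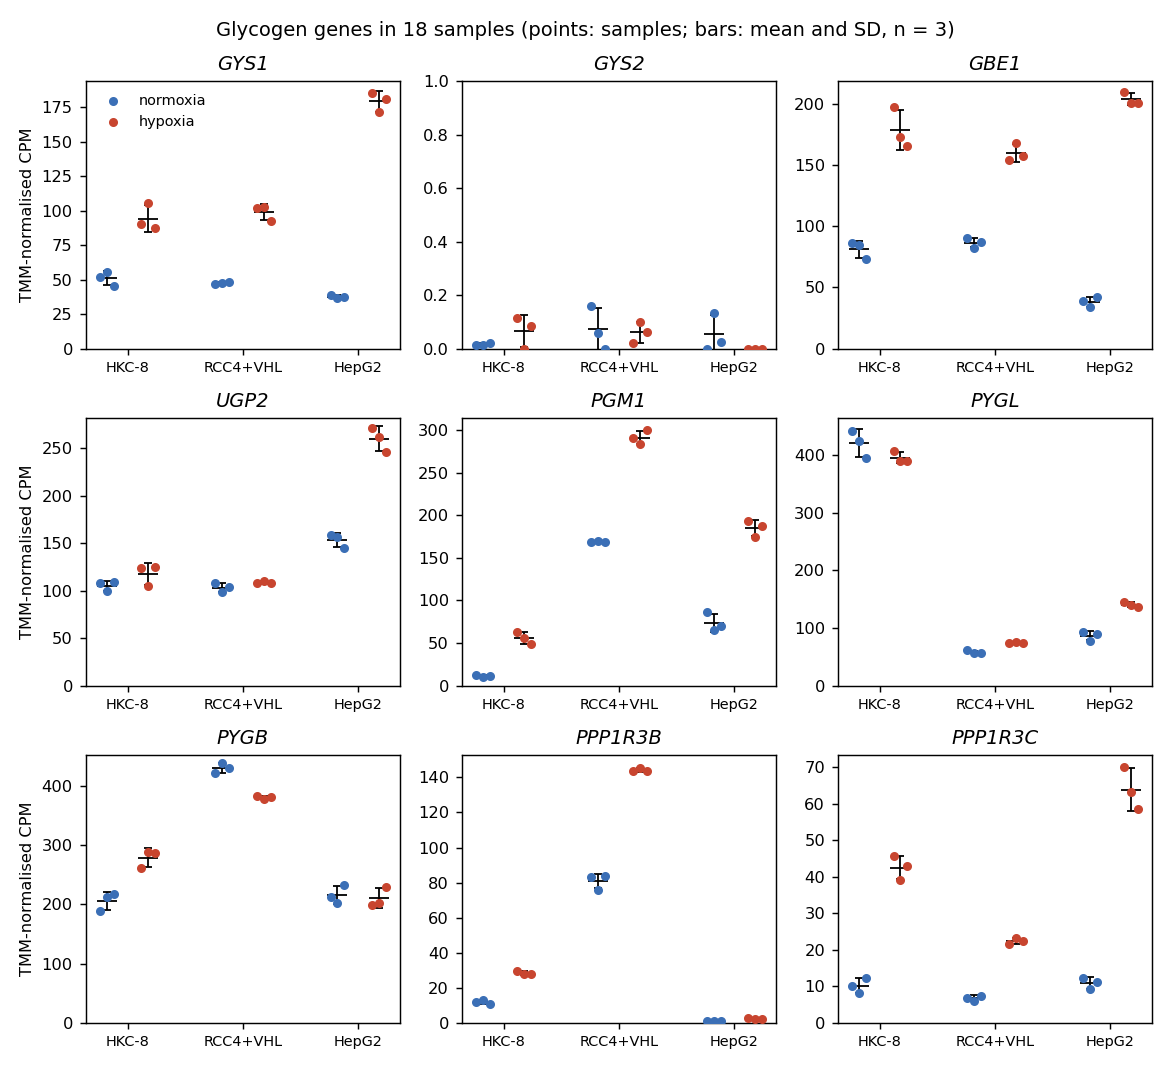
Level of each of the 9 genes in CPM (vertical axes from 0, a separate scale for each gene) in normoxia and hypoxia of each line, with points for samples and the mean and SD of 3 samples. PYGL stood highest in HKC-8, PGM1, PYGB and PPP1R3B in RCC4+VHL, and GYS2 was under 1 CPM in every sample.

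PGM1 (GRCh37 chr1:64059082-64125916, plus strand) encodes the main phosphoglucomutase, which interconverts glucose 6-phosphate and glucose 1-phosphate. In HKC-8 it stood at 12.6, 10.6 and 11.4 CPM in normoxia and at 62.4, 56.1 and 48.5 CPM in hypoxia. In RCC4+VHL the values were 168, 170 and 168 CPM in normoxia and 290, 283 and 299 CPM in hypoxia. In HepG2 they were 85.9, 64.7 and 69.7 CPM and then 193, 175 and 187 CPM. The groups did not overlap in any line, and hypoxic HKC-8 cells remained below the normoxic samples of the other lines. The log2 fold change was 2.27 ± 0.12 (SE) in HKC-8, a 4.84-fold rise (edgeR adjusted p = 7.09e-06). It was 0.79 ± 0.03 in RCC4+VHL (adjusted p = 4.75e-15) and 1.33 ± 0.09 in HepG2 (adjusted p = 7.83e-08). In HKC-8, 0.901% of tested genes had a higher log2 fold change. An annotated exon of PGM1 shares 197 bases with ITGB3BP on the opposite strand, and the strand setting of the counting is not given in the sources used here.

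UGP2 (chr2:64069030-64118694, plus strand) encodes UDP-glucose pyrophosphorylase, which makes the UDP-glucose that glycogen synthase uses. In HepG2 it rose from 158, 157 and 145 CPM to 272, 262 and 246 CPM. Its log2 fold change there was 0.76 ± 0.06 (adjusted p = 8.09e-07). In HKC-8 it stood at 108, 99.2 and 109 CPM in normoxia and 124, 105 and 125 CPM in hypoxia, and the groups overlapped. Its log2 fold change was 0.17, with a 95% interval from -0.04 to 0.37 (adjusted p = 0.216). With the replicate block it was 0.16 and was called (adjusted p = 0.0395). In RCC4+VHL the normoxic values of 108, 98.2 and 104 CPM and the hypoxic values of 108, 110 and 108 CPM overlapped, with a log2 fold change of 0.08 and an interval from -0.01 to 0.16 (adjusted p = 0.112).

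GYS1 (chr19:49471387-49496566, minus strand, 16 exons and 737 codons in the canonical transcript) encodes the glycogen synthase of muscle and most other tissues. In HepG2 it stood at 38.8, 37.0 and 37.5 CPM in normoxia and at 186, 171 and 181 CPM in hypoxia. In HKC-8 the values were 52.3, 55.8 and 45.3 CPM and then 90.0, 105 and 87.5 CPM. In RCC4+VHL they were 47.0, 47.6 and 48.3 CPM and then 102, 103 and 92.6 CPM. The lines lay close together in normoxia, and hypoxic HepG2 cells stood apart from both kidney lines. The log2 fold change was 2.25 ± 0.06 in HepG2, a 4.75-fold rise (edgeR adjusted p = 6.94e-12). It was 0.89 ± 0.10 in HKC-8 (adjusted p = 0.000912) and 1.06 ± 0.05 in RCC4+VHL (adjusted p = 5.36e-15).

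GYS2 (chr12:21689041-21757781, minus strand) encodes the glycogen synthase of liver. It had 1, 1 and 2 counts in normoxic and 9, 0 and 7 counts in hypoxic HKC-8 samples. In RCC4+VHL it had 8, 3 and 0 counts in normoxia and 1, 5 and 3 in hypoxia. In HepG2, a line that carries high levels of other liver transcripts, it had 0, 6 and 1 counts in normoxia and 0 in each hypoxic sample. A count of 0 allows a level of up to 3 counts, which is between 0.0306 and 0.0733 CPM over the 18 samples, and this limit covers counting error only. Its annotated exons overlap another gene on the same strand by 973 bases and SPX on the opposite strand by 375 bases, so its few counts are uncertain. Nearly all synthase counts in these lines were those of GYS1.

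GBE1 (chr3:81538854-81810796, minus strand) encodes the branching enzyme. In HepG2 it stood at 38.7, 33.7 and 42.3 CPM in normoxia and at 210, 201 and 201 CPM in hypoxia. In HKC-8 the values were 86.1, 84.5 and 73.2 CPM and then 198, 173 and 166 CPM. In RCC4+VHL they were 90.1, 82.6 and 87.4 CPM and then 154, 168 and 158 CPM. HepG2 was thus the lowest line in normoxia and the highest in hypoxia. The log2 fold change was 2.42 ± 0.08 in HepG2, a 5.34-fold rise (edgeR adjusted p = 3.26e-11). It was 1.14 ± 0.10 in HKC-8 (adjusted p = 0.00013) and 0.89 ± 0.04 in RCC4+VHL (adjusted p = 2.63e-14).

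PPP1R3C (chr10:93388199-93392828, minus strand) encodes a targeting subunit of protein phosphatase 1, also known as PTG. In HKC-8 it stood at 9.96, 8.19 and 12.3 CPM in normoxia and at 45.7, 39.1 and 42.9 CPM in hypoxia. In RCC4+VHL the values were 6.82, 6.02 and 7.46 CPM and then 21.6, 23.2 and 22.5 CPM. In HepG2 they were 12.4, 9.15 and 11.3 CPM and then 70.1, 63.2 and 58.5 CPM. No groups overlapped within a line, and every hypoxic RCC4+VHL sample lay below every hypoxic sample of the other lines. It rose by a log2 fold change of 2.07 ± 0.15 in HKC-8 (adjusted p = 4.49e-05), 1.74 ± 0.08 in RCC4+VHL (adjusted p = 2.5e-14) and 2.55 ± 0.10 in HepG2 (adjusted p = 5.15e-10). It ranked 154 among 13536 genes by log2 fold change in HKC-8, 76 among 12811 in RCC4+VHL and 119 among 13623 in HepG2.

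PPP1R3B (chr8:8993765-9008168, minus strand) encodes a targeting subunit known from liver. In RCC4+VHL it stood at 83.0, 76.0 and 83.6 CPM in normoxia and at 144, 145 and 144 CPM in hypoxia. In HKC-8 the values were 11.6, 13.2 and 10.6 CPM and then 29.4, 27.8 and 27.8 CPM. In HepG2 they were 0.997, 1.03 and 1.03 CPM, from 43 to 46 counts, and then 2.69, 2.02 and 2.30 CPM, from 89 to 113 counts. The liver line thus had the lowest level and RCC4+VHL the highest, in either oxygen state. It rose by a log2 fold change of 1.27 ± 0.11 in HKC-8 (adjusted p = 0.000153), 0.84 ± 0.04 in RCC4+VHL (adjusted p = 4.82e-14) and 1.19 ± 0.21 in HepG2 (adjusted p = 0.00054). Its exons share 245 bases with a gene on the opposite strand.

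PYGL (chr14:51371935-51411201, minus strand) encodes the liver form of glycogen phosphorylase. In HKC-8, the line with the highest level, it stood at 442, 424 and 394 CPM in normoxia and at 407, 390 and 389 CPM in hypoxia. These groups overlapped, and the log2 fold change was -0.08 with a 95% interval from -0.26 to 0.09 (edgeR adjusted p = 0.468). In RCC4+VHL it rose from 61.3, 57.1 and 57.2 CPM to 73.7, 75.9 and 74.8 CPM, a log2 fold change of 0.36 ± 0.04 (adjusted p = 3.42e-07). In HepG2 it rose from 92.4, 77.4 and 89.3 CPM to 144, 140 and 136 CPM, a log2 fold change of 0.70 ± 0.07 (adjusted p = 3.58e-06). Its exons share 102 bases with a gene on the opposite strand.

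PYGB (chr20:25228721-25278648, plus strand) encodes the brain form of the enzyme. In HKC-8 it rose from 189, 212 and 218 CPM to 261, 288 and 287 CPM. The log2 fold change was 0.44 ± 0.09 (edgeR adjusted p = 0.00943), and without HKC-8 normoxia replicate 1 it was 0.37 and not called (adjusted p = 0.0545). In RCC4+VHL it fell from 422, 439 and 431 CPM to 383, 379 and 382 CPM. This log2 fold change was -0.17 ± 0.03 (adjusted p = 9.14e-05), and in 1 fit of all 18 samples it was -0.18 and not called (adjusted p = 0.0768). In HepG2 the values of 212, 202 and 232 CPM and 199, 202 and 229 CPM overlapped, with a log2 fold change of -0.04 and a 95% interval from -0.19 to 0.11 (adjusted p = 0.72).

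**Figure D2:**
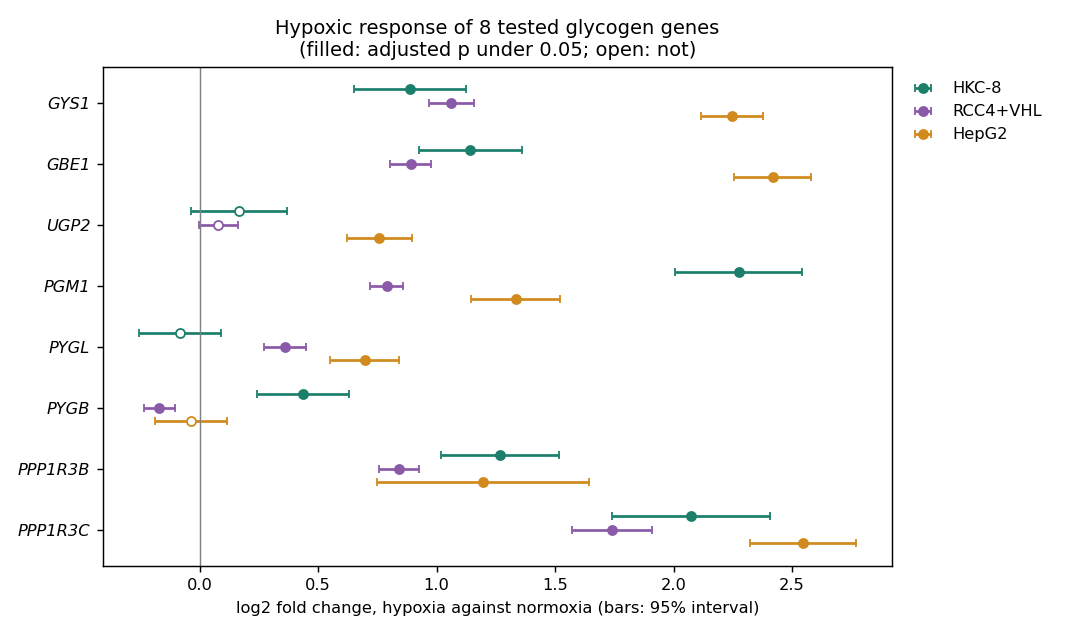
Log2 fold change of hypoxia against normoxia (horizontal axis) for the 8 tested genes in each line, with 95% intervals, filled where the adjusted p was under 0.05 and open where it was not. GYS1 and GBE1 stood at 2.25 and 2.42 in HepG2, PGM1 at 2.27 in HKC-8, and PPP1R3C was above 1.7 in every line.

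The size of the response was compared between lines as the interaction of line and oxygen, in fits of 12 samples each. Each line enters 2 of the 3 comparisons, so these share samples. Between HKC-8 and HepG2 the response of 6 of the 8 genes differed, where 9.3% of 15046 genes did. Their labels give the same oxygen and duration, but the titles of hypoxic HKC-8 samples give 0.1 for oxygen. Line and oxygen level may thus not be told apart here either. With the replicate block 2 genes responded more in HKC-8 and 5 more in HepG2, where 20.1% of all genes differed. That block was set in both lines, although the HepG2 numbers were not taken as pairs. GYS1, GBE1, UGP2 and PYGL responded more in HepG2, with differences in log2 fold change (HKC-8 minus HepG2) of -1.36, -1.28, -0.60 and -0.78 (edgeR adjusted p = 6.99e-06, 2.49e-05, 0.00343 and 0.000314). PGM1 and PYGB responded more in HKC-8, with differences of 0.94 and 0.47 (adjusted p = 0.00147 and 0.0198). The PYGB difference was not called without HKC-8 normoxia replicate 1 (adjusted p = 0.057) or without HepG2 hypoxia replicate 1 or 2 (adjusted p = 0.063 and 0.0591). For PPP1R3C the difference was -0.48, with a 95% interval from -0.89 to -0.06 (adjusted p = 0.146). It was called with the replicate block (-0.47, adjusted p = 0.0268) and without HKC-8 normoxia replicate 2 (-0.61, adjusted p = 0.0498). For PPP1R3B it was 0.07, with an interval from -0.36 to 0.49 (adjusted p = 0.905).

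RCC4+VHL cells had another labelled oxygen level and duration, so line and exposure cannot be told apart in what follows. Between RCC4+VHL and HepG2, 6 of the 8 genes differed, where 22.6% of 14813 genes did, and all 6 responded more in HepG2. The differences (RCC4+VHL minus HepG2) were -1.20 for GYS1, -1.54 for GBE1, -0.69 for UGP2, -0.55 for PGM1, -0.35 for PYGL and -0.82 for PPP1R3C, with edgeR adjusted p from 3.23e-10 to 0.00473. PYGB differed by -0.14 and PPP1R3B by -0.36, with 95% intervals from -0.31 to 0.02 and from -0.68 to -0.05, and were not called (adjusted p = 0.209 and 0.0942). Without HepG2 hypoxia replicate 2 the PPP1R3B difference was -0.46 and was called (adjusted p = 0.036).

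Between HKC-8 and RCC4+VHL, 4 of the 8 genes differed, where 15.2% of 14203 genes did. With the replicate block 4 responded more in HKC-8 and 1 more in RCC4+VHL, where 28.7% of all genes differed. That block was set in both lines, although the RCC4+VHL numbers were not taken as pairs. PGM1 responded more in HKC-8 by 1.50 on the log2 scale (edgeR adjusted p = 4.88e-06), PYGB by 0.63 (adjusted p = 0.000565) and PPP1R3B by 0.45 (adjusted p = 0.00998). PYGL responded more in RCC4+VHL, with a difference of -0.42 (adjusted p = 0.00246). The differences for GYS1, GBE1, UGP2 and PPP1R3C were -0.16, 0.27, 0.11 and 0.35, with 95% intervals from -0.40 to 0.09, from 0.04 to 0.50, from -0.12 to 0.33 and from -0.05 to 0.75, and were not called (adjusted p = 0.413, 0.106, 0.558 and 0.232). GBE1 was called with the replicate block (adjusted p = 0.019), and PPP1R3C without HKC-8 normoxia replicate 3 (0.51, adjusted p = 0.0277).

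In normoxia the lines differed most in PPP1R3B, PGM1 and PYGL. Levels were compared in 1 fit of the 9 normoxic samples, in which 83% of 14806 genes differed between HKC-8 and HepG2, 80.8% between HKC-8 and RCC4+VHL and 83.3% between RCC4+VHL and HepG2. The 8 genes were called in 6, 5 and 8 cases, so their count was not set apart from that of other genes. PPP1R3B was 78.9-fold higher in RCC4+VHL than in HepG2 (edgeR adjusted p = 1.49e-14) and 11.4-fold higher in HKC-8 than in HepG2 (adjusted p = 5.02e-12), with RCC4+VHL above HKC-8 (adjusted p = 4.7e-12). PGM1 was highest in RCC4+VHL and lowest in HKC-8, 14.8-fold apart (adjusted p = 7.87e-13). PYGL in HKC-8 was 4.80-fold the level in HepG2 and 7.12-fold that in RCC4+VHL (adjusted p = 5.15e-12 and 1.13e-12).

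The remaining genes were closer between the normoxic lines. GYS1 was 1.34-fold higher in HKC-8 and 1.25-fold higher in RCC4+VHL than in HepG2 (adjusted p = 0.000236 and 0.00171), and HKC-8 and RCC4+VHL were not called different (log2 difference 0.09, adjusted p = 0.307). Without HKC-8 normoxia replicate 3 this difference was 0.19 and was called (adjusted p = 0.0181). GBE1 was 2.10-fold and 2.26-fold higher in HKC-8 and RCC4+VHL than in HepG2 (adjusted p = 6.85e-08 and 2.5e-08), and UGP2 was highest in HepG2 (log2 difference of HKC-8 minus HepG2 -0.56, adjusted p = 2.89e-06, and of RCC4+VHL minus HepG2 -0.58, adjusted p = 2.22e-06). PYGB was highest in RCC4+VHL, 1.99-fold the level in HepG2 (adjusted p = 1.87e-08), with HKC-8 and HepG2 not called different (adjusted p = 0.301). PPP1R3C was lowest in RCC4+VHL, with a log2 difference of -0.70 from HepG2 (adjusted p = 0.0013). The median of all genes was -0.11 for RCC4+VHL against HepG2 on this scale, which bears on the smaller of these differences.

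Per kilobase of the canonical transcript, the order of the 9 genes differed by line. In normoxic HKC-8 the highest level was that of PYGL, at 150 ± 8.59 CPM per kb (SD, n = 3), followed by PYGB at 50.1 ± 3.72 and UGP2 at 49.0 ± 2.47 CPM per kb, which overlapped. In normoxic RCC4+VHL PYGB led at 105 ± 2.07 CPM per kb, followed by PGM1 at 72.3 ± 0.418 CPM per kb. In normoxic HepG2 UGP2 led at 71.4 ± 3.26 CPM per kb, followed by PYGB at 52.4 ± 3.63 CPM per kb. GYS1 stood at 10.6 ± 0.269 CPM per kb in normoxic and 50.2 ± 2.05 CPM per kb in hypoxic HepG2. The GYS1 level in hypoxic HepG2 overlapped that of PYGL (50.0 ± 1.56) and PYGB (51.1 ± 4.04 CPM per kb), both above it in normoxia.

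The makeup of the phosphorylase and targeting subunit transcripts differed between lines and oxygen states. Shares of summed per-kilobase levels are given as descriptions, since 3 samples against 3 cannot reach an exact two-sided permutation p under 0.1. PYGL made up 74.9% ± 2.41 (SD, n = 3) of PYGL, PYGB and PYGM in normoxic HKC-8 and 67.6% ± 1.78 in hypoxic HKC-8. In RCC4+VHL its share was 16.7% ± 0.821 in normoxia and 22.4% ± 0.352 in hypoxia, and in HepG2 it was 37.0% ± 1.70 and 49.3% ± 2.62. The groups of a line did not overlap, and the share was lower in hypoxia in HKC-8 and higher in the other lines. PPP1R3C made up 35.5% ± 3.37 of 6 targeting subunits (PPP1R3B to PPP1R3G) in normoxic and 59.7% ± 0.530 in hypoxic HKC-8, 11.6% ± 0.692 and 22.1% ± 0.559 in RCC4+VHL, and 45.0% ± 3.06 and 71.0% ± 1.49 in HepG2. PPP1R3B held 64.0% ± 1.52 of this sum in normoxic RCC4+VHL and 1.95% ± 0.203 in normoxic HepG2, so different subunits led in these lines. The order rests on the canonical transcript lengths. By mean CPM, PPP1R3E (13.8) stood above PPP1R3C (10.9) in normoxic HepG2. PPP1R3D (13.5) and PPP1R3B (11.8) stood above PPP1R3C (10.1) in normoxic HKC-8. In hypoxia PPP1R3C was the highest by CPM in both lines.

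**Figure D3:**
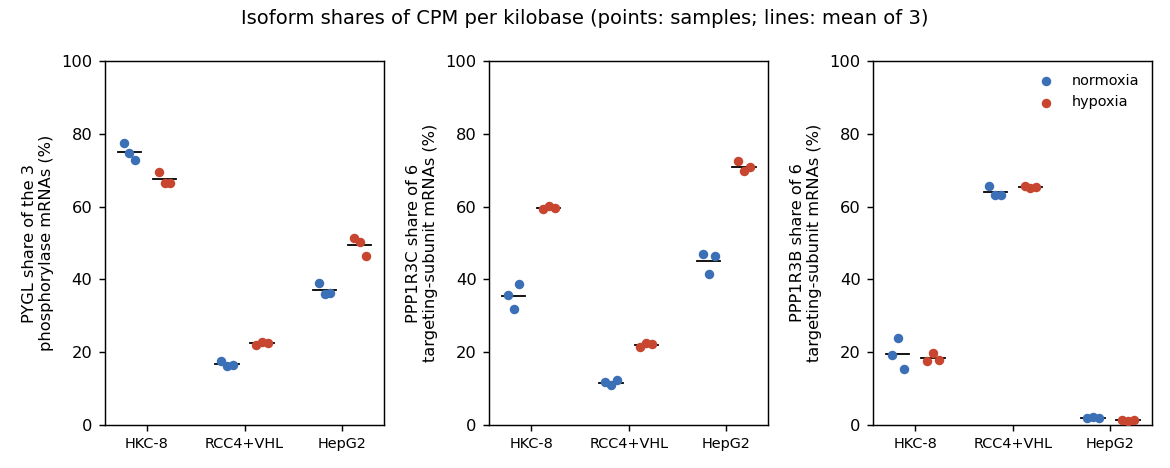
Shares in percent (vertical axes from 0) of PYGL among the phosphorylase transcripts and of PPP1R3C and PPP1R3B among 6 targeting subunits, by line and oxygen, with points for samples. PPP1R3C went from 45.0% to 71.0% in HepG2, and PYGL from 74.9% to 67.6% in HKC-8.

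Of 36 other genes of the pathway, 26 were tested in HKC-8. There 4 were called higher and 1 lower, beside 11.2% and 9.12% of all tested genes. With the replicate block 10 were called higher and 3 lower, beside 21% and 21.6% of all genes. In 1 fit of all 18 samples 9 were called higher and 2 lower, where 2503 and 2510 of all genes were. The lower call was lost without HKC-8 normoxia replicate 1 or 2 or HKC-8 hypoxia replicate 1 or 3. In these fits the lower calls over all genes fell from 1235 to between 326 and 675. In RCC4+VHL 10 of 25 were called higher and 7 lower, beside 25.9% and 24.2% of all genes, so the lower calls lay near that share. The 7 became 2 in 1 fit of all 18 samples, 4 without RCC4+VHL normoxia replicate 2 or 3 and 3 without RCC4+VHL hypoxia replicate 3. Over all genes the lower calls went from 3105 to 1419 in the fit of 18 samples. Without 1 sample they were between 2694 and 2894. In HepG2 13 of 30, PYGM among them, were called higher and 1 lower, beside 19.9% and 19.2% of all genes. The lower count was 0 without HepG2 normoxia replicate 1 or hypoxia replicate 1, and 2 with the block or without HepG2 normoxia replicate 3 or hypoxia replicate 2. Over all genes the lower calls lay between 1890 and 2918 in the fits without 1 sample. The median log2 fold changes of these other pathway genes were 0.15, 0.05 and 0.20. The genes that rose in all 3 lines were HK1, HK2, PPP1R3E and STBD1. HK1 and HK2 encode hexokinases, which supply glucose 6-phosphate, and their log2 fold changes in HKC-8, RCC4+VHL and HepG2 were 0.83, 1.33 and 2.70 for HK1 and 1.49, 2.13 and 1.77 for HK2. STBD1 encodes a protein that binds glycogen and links it to the lysosome, with log2 fold changes of 0.95, 1.00 and 1.35. PPP1R3E, another targeting subunit, had log2 fold changes of 1.23, 0.67 and 1.26.

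Other pathway genes with a log2 fold change above 1 were called in HepG2, and were not called, or had too few counts to be tested, in the kidney lines. PHKA2, the liver regulatory subunit of phosphorylase kinase, stood at 40.2 ± 1.46 CPM (SD, n = 3) in normoxia and 86.1 ± 7.61 CPM in hypoxia, which is a difference of 1.10 ± 0.07 on the log2 scale (edgeR adjusted p = 9.43e-08). It was -0.10 in HKC-8 and 0.17 in RCC4+VHL, and the difference from HepG2 was called against both (adjusted p = 5.57e-06 and 2.34e-06). PPP1R3G, a targeting subunit, went from 30, 21 and 29 counts to 199, 215 and 226 counts in HepG2 (log2 fold change 3.04, adjusted p = 8.41e-08). PYGM, the muscle phosphorylase, went from 2, 6 and 3 counts to 48, 44 and 32 counts. It passed the filter on low counts in HepG2 only through its hypoxic samples, so that it had to differ, and neither a fold nor a test is read from it. In HKC-8, PYGM (7 to 16 counts, then 12 to 29) and PPP1R3F (3 to 13, then 17 to 30) also passed only with their hypoxic samples. Neither was called there, and no fold is read from them, but both count among the genes tested in HKC-8 and in the HKC-8 median. G6PC, the glucose 6-phosphatase catalytic subunit of liver, went from 32, 21 and 14 counts to 55, 65 and 34 counts (1.23, adjusted p = 0.00838). G6PC2, HK3 and PPP1R3A, like GYS2, had under 10 counts in every sample of all lines.

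By list, 2 of 4 tested genes of glucose phosphorylation and the glucose 6-phosphatase system were called higher in HKC-8, 2 of 4 in RCC4+VHL and 3 of 6 in HepG2, with 1 lower in RCC4+VHL. Of the phosphoglucomutase relatives, 0 of 3, 3 of 3 and 2 of 3 were called higher. Of the phosphorylase kinase subunits, 0 of 4, 0 of 4 and 1 of 4 were called higher, and 0, 1 and 1 lower. Of the other targeting subunits, 1 of 3, 1 of 3 and 2 of 4 were called higher, with 2 lower in RCC4+VHL. The 3 tested in HKC-8 include PPP1R3F. Of the catalytic subunits of protein phosphatase 1, 0 of 3, 1 of 3 and 1 of 3 were called higher, and of the glycogen synthase kinases 0 of 2, 1 of 2 and 0 of 2, with 1 lower of each of these lists in RCC4+VHL. Of the genes of glycogen quality control and lysosomal breakdown, 1 of 3, 1 of 4 and 2 of 4 were called higher. Of the primer, debranching and muscle phosphorylase genes, 0 of 4, 1 of 2 and 2 of 4 were called higher, with 1 lower in each kidney line. The 4 tested in HKC-8 and the 2 called higher in HepG2 include PYGM. These lists hold few genes, and their shares are read beside the percentages of all genes given above.

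**Figure D4:**
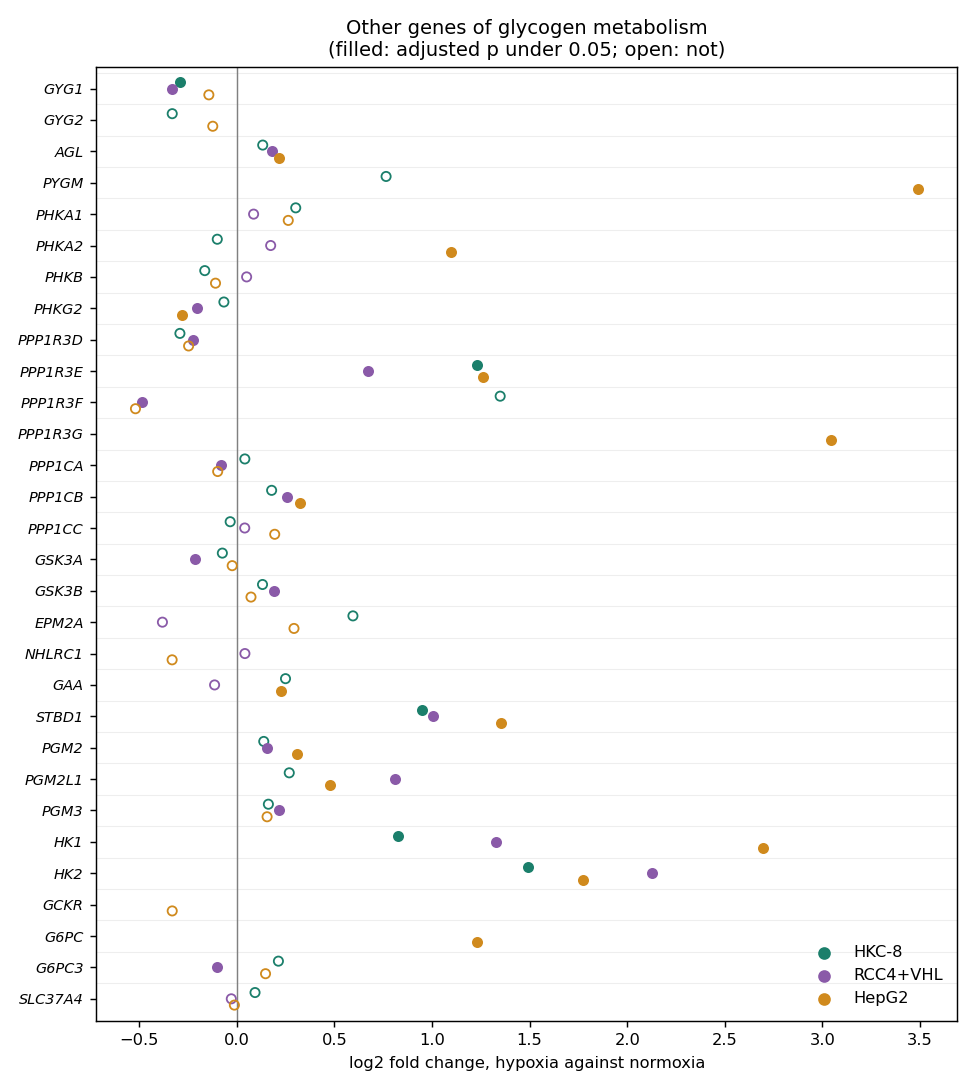
Log2 fold change of hypoxia against normoxia (horizontal axis) of the other pathway genes tested in at least 1 line, colored by line, filled where the adjusted p was under 0.05 and open where it was not. HK1, HK2, STBD1 and PPP1R3E were above 0.6 in every line, and PPP1R3G was above 3 in HepG2. PYGM in HepG2 and HKC-8, and PPP1R3F in HKC-8, are plotted but not read, since they passed the filter on low counts only with their hypoxic samples.

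The genes closest to 3 of the members in their pattern over the 18 samples were found by Pearson's r of log2 CPM centred within each line, over 11417 genes. For GYS1 these were ENO1 (0.997), HK1 (0.993) and GAPDH (0.991). For GBE1 they were PLOD2 (0.989), GYS1 (0.986) and ENO1 (0.986), and for PPP1R3C they were P4HA1 (0.994), ANKZF1 (0.994) and EFNA3 (0.993). Among the 8 members, r was 0.939 between GYS1 and PPP1R3C, 0.798 between GYS1 and PGM1, 0.083 between GYS1 and PYGB and -0.319 between PYGL and PYGB. Genes of a sample share its library and depth, and the centred values keep the step between oxygen states, so r is a description.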

How the data were processed

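The deposited files hold raw read counts per gene, which the authors made from polyA+ RNA. They trimmed reads with Trim Galore 0.3.3, aligned them to GRCh37 with TopHat 2.0.8b and Bowtie 1.0.0, removed fragments without a unique position with SAMtools 0.1.19, and counted reads on UCSC genes with HTSeq 0.5.4p3 in its intersection-strict mode. HKC-8 samples were split over lanes. Reads shared by near-identical or overlapping genes are thus left out.

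Everything from the counts onwards was computed with R 4.3.3, edgeR 4.0.16 (filterByExpr, TMM, glmQLFit, glmQLFTest, adjusted p under 0.05 over all tested genes), DESeq2 1.42.0 and Python 3.11.15. CPM are counts scaled to the total times the TMM factor of 18 samples. Gene coordinates and upstream windows are those of the canonical transcript in GENCODE on GRCh37. Counts were also simulated from the spread that edgeR fitted to these samples. Of 13428 tested genes in HKC-8, 198 were changed by 1.5 on the log2 scale. Of these changed genes 93.4% were recovered, and 98% and 96.4% in RCC4+VHL and HepG2. For differences in response 82.4% (HKC-8 and HepG2), 82.9% (HKC-8 and RCC4+VHL) and 88.3% (RCC4+VHL and HepG2) were. In the normoxic comparisons up to 8.54% of calls were unchanged genes. That value is for HKC-8 against HepG2, where 193 of 14472 tested genes were changed, while 83% of genes were called in the data. The simulation thus does not describe errors where most genes differ. Smaller changes, such as those of PYGB and PYGL, were not simulated.

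Groups come from the labels. Members and lists were chosen with earlier results of these data known. Named were all members, other pathway genes called in a line with a log2 fold change of 1 or more in size or called in all 3 lines, those under 10 counts throughout, and the 3 genes nearest to GYS1, GBE1 and PPP1R3C. A gene that this rule names is not reported here. Same-numbered samples share numbers in the labels. Their deviations correlated at 0.197, 0.672 and 0.611 in HKC-8. All were above 0.1, so these numbers were taken as pairs, although normoxia replicate 1 also had 0.16 with hypoxia replicate 2. They correlated at 0.264, 0.0423 and 0.24 in HepG2 and from -0.00241 to 0.046 in RCC4+VHL. These were not taken as pairs, although 0.264 and 0.24 exceed 0.197. The main tests, with the SE and p-values given for each gene, used no block in any line. With the block the SE of each tested member in HKC-8 was smaller, 0.06 against 0.10 for GYS1. Alternatives were DESeq2, median-of-ratios scaling, a single fit of 18 samples, no filter, a minimum of 10 counts in every sample, a replicate block, and leaving out each sample.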

Additional observations from a re-analysis of the deposited data

Results flagged for a closer look

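The difference in hypoxic response between lines passed the interaction test for 16 pairs of gene and comparison, given here as differences in log2 fold change. For HKC-8 minus HepG2 they were GYS1 -1.36, GBE1 -1.28, UGP2 -0.60, PYGL -0.78, PGM1 0.94 and PYGB 0.47. For HKC-8 minus RCC4+VHL they were PGM1 1.50, PYGB 0.63, PPP1R3B 0.45 and PYGL -0.42. For RCC4+VHL minus HepG2 they were GYS1 -1.20, GBE1 -1.54, UGP2 -0.69, PGM1 -0.55, PYGL -0.35 and PPP1R3C -0.82. Each line enters 2 of these comparisons, and RCC4+VHL cells had another labelled exposure. The cause of these differences was not tested.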

How the results depend on the processing

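Of 288 alternative values of the members' hypoxic response, 283 kept their direction and side of the threshold, as did 423 of 432 values of the differences in response and 328 of 336 of the normoxic levels. In 1 fit of all 18 samples the count of all genes called higher and lower was 2503 and 2510 in HKC-8, 1867 and 1419 in RCC4+VHL with 0 members lower, 1010 and 1209 for HKC-8 against HepG2, and 925 and 961 for RCC4+VHL against HepG2. With the replicate block the counts were 2836 and 2919 in HKC-8, 1363 and 1656 for HKC-8 against HepG2, and 1892 and 2179 for HKC-8 against RCC4+VHL. The block was set by number in every line of a fit, although only the HKC-8 numbers were taken as pairs. Among the members the block changed no call other than those given for UGP2, PPP1R3C and GBE1. In RCC4+VHL the block called PHKA2 (0.17, adjusted p = 0.0486), and so did leaving out RCC4+VHL hypoxia replicate 3 (0.22, adjusted p = 0.0313). Leaving out 1 sample gave from 687 to 1794 genes higher and 326 to 1489 lower in HKC-8, with the fewest without HKC-8 normoxia replicate 1 (687 and 326) and HKC-8 hypoxia replicate 1 (750 and 342), and with 522 and 675 lower without HKC-8 normoxia replicate 2 and hypoxia replicate 3. For HKC-8 against HepG2 it gave 430 to 1000 higher, the most without HKC-8 normoxia replicate 3, and 481 to 932 lower, with 492, 481 and 501 without HepG2 normoxia replicate 2, hypoxia replicate 1 and hypoxia replicate 3, and 1 to 2 members higher. For HKC-8 against RCC4+VHL it gave 667 to 1399 higher, with 683, 667 and 673 without RCC4+VHL normoxia replicate 2, hypoxia replicate 2 and hypoxia replicate 3, and 806 to 1517 lower.

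Directions turned only for values that were not called. PYGB in HepG2 ranged from -0.102 to 0.0128 over the fits without 1 sample, and was above 0 without HepG2 normoxia replicate 3 (0.0128) or HepG2 hypoxia replicate 1 (0.000344). The PPP1R3B difference of HKC-8 and HepG2 ranged from -0.0258, without HepG2 hypoxia replicate 2, to 0.190. In normoxia, HKC-8 against HepG2, PPP1R3C ranged from -0.234 to 0.0678 and was above 0 without HKC-8 normoxia replicate 2 (0.0678) or HepG2 normoxia replicate 1 (0.0228), and PYGB ranged from -0.0798 to 0.0214, the latter without HepG2 normoxia replicate 3. UGP2 in normoxic HKC-8 against RCC4+VHL, at 0.0155, was -0.0325 with DESeq2 and with median-of-ratios scaling, -0.0375 with at least 10 counts in every sample, and from -0.0206, without RCC4+VHL normoxia replicate 2, to 0.0698 without HKC-8 normoxia replicate 2. The cause was not tested in any of these cases. Depth limits GYS2, which had at most 9 counts in a sample.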

Other observations

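HK1 averaged 242 ± 17.2 CPM (SD, n = 3) in normoxic HKC-8, 69.5 ± 1.46 CPM in normoxic RCC4+VHL and 3.22 ± 0.277 CPM in normoxic HepG2, and 429 ± 40.6, 174 ± 2.26 and 20.9 ± 1.55 CPM in hypoxia. Its hypoxic response was larger in HepG2 than in HKC-8, with a difference in log2 fold change of -1.87 (HKC-8 minus HepG2, edgeR adjusted p = 6.43e-07), and larger than in RCC4+VHL (RCC4+VHL minus HepG2 -1.37, adjusted p = 6.35e-09). It was also larger in RCC4+VHL than in HKC-8 (HKC-8 minus RCC4+VHL -0.48, adjusted p = 0.00417). HK2 responded more in RCC4+VHL than in HepG2, by 0.35 (adjusted p = 0.012), but in 1 fit of all 18 samples this was not called (adjusted p = 0.271). STBD1 and PPP1R3E responded more in HepG2 than in RCC4+VHL, with differences of -0.36 and -0.60 (RCC4+VHL minus HepG2, adjusted p = 0.0184 and 0.0356). In 1 fit of all 18 samples neither was called (adjusted p = 0.185 and 0.196). STBD1 was also not called without RCC4+VHL normoxia replicate 2 or RCC4+VHL hypoxia replicate 2 (adjusted p = 0.0591 and 0.0543), and PPP1R3E not in 6 of the fits without 1 sample, with the highest adjusted p, 0.188, without RCC4+VHL normoxia replicate 1.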
